A study of Mus musculus with 12 samples.

Results

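mmu-miR-31 was followed on 2-colour Exiqon miRCURY LNA microarrays of BC3H1 cells, a mouse line derived from a brain tumour that has muscle-like features. Its probe was found by name, as 1 of 417 probes named for mouse microRNAs (miRNAs), and has 4 spots on each of 12 arrays. miR-31 was selected on its higher normalized ratio in rapamycin-resistant cells, so its values in those cells are given as a description with no test. The array also holds a separate probe, mmu-miR-31*, for the other strand of the same hairpin, which did not enter that selection.

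The samples form 3 groups of 4 arrays each. RR_Rap is RR1, a line made resistant by 6 months of culture in 1 µM rapamycin and kept in that dose. RS_Rap is the sensitive parental BC3H1 line after 24 h with 100 nM rapamycin, and RS_DMSO is the same parental line after 24 h with the solvent DMSO. Each sample was labelled with the dye Hy3 and hybridised with a common RNA pool labelled with Hy5, so a ratio here is sample over pool, and no array had its dyes swapped. There is 1 resistant line, and its drug dose and exposure both differ from those of RS_Rap, so line, dose and duration cannot be told apart. The arrays of a group were scanned in 1 unbroken run, so group and scan order cannot be told apart either.

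miRNAs are short RNAs that guide Argonaute proteins to messenger RNAs, mainly by pairing through the seed, bases 2 to 8 of the mature strand. In mouse muscle satellite cells, the resident stem cells of skeletal muscle, miR-31 is known to hold back translation of Myf5 mRNA, which encodes a transcription factor that commits cells to the muscle lineage. Rapamycin inhibits the kinase complex mTORC1, which promotes protein synthesis and cell growth. Myf5 mRNA was not measured on these arrays.

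The miR-31 gene lies on the minus strand at chr4:88910557-88910662 (RefSeq, build GRCm38.p6), within the long non-coding RNA gene Gm49890. The protein-coding genes Mtap, Cdkn2a and Cdkn2b lie 227, 364 and 396 kb away. Only 1 other miRNA gene, Mir491, lies within 1 Mb, at a distance of 788 kb. The hairpin of 106 bases is shown with both mature strands in capitals, the 5p strand at bases 28 to 49 and the 3p strand at bases 64 to 86, because the array measures each strand with its own probe.
Mir31 hairpin: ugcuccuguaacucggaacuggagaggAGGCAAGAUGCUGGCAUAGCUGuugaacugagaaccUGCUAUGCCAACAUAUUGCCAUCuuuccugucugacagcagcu

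The mature strands follow with the seed in capitals. By current naming, the unstarred array name was taken as the 5p strand (chr4:88910614-88910635) and the starred name as the 3p strand (chr4:88910577-88910599). Each seed occurs under 1 name only among the 1679 mature mouse names of the RefSeq table, so miR-31 had no listed seed relative in the mouse.
miR-31 (mmu-miR-31-5p): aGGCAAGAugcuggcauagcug
miR-31* (mmu-miR-31-3p): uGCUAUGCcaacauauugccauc

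miR-31 gave a measurable signal in all 3 groups. The mean Hy3 signal of its 4 spots, in scanner units, was 348, 244, 352 and 346 on RR_Rap 1 to 4. It was 234, 243, 243 and 228 on RS_Rap 1 to 4, and 234, 226, 179 and 215 on RS_DMSO 1 to 4. RR_Rap 1, 3 and 4 stood above all other arrays, and RR_Rap 2 lay next to the highest sensitive arrays. Against the highest negative-control probe of the same array, the median Hy3 signal of the spots was 1.85 to 2.68 times as high in RR_Rap, 1.87 to 1.93 times in RS_Rap and 0.625 to 1.62 times in RS_DMSO. It stood above that control on 11 of 12 arrays, the exception being RS_DMSO 3, whose highest negative control read 303.

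In the pool channel the Hy5 signal was 309, 207, 314 and 304 on RR_Rap 1 to 4. It was 250, 263, 258 and 225 on RS_Rap 1 to 4, and 303, 301, 215 and 283 on RS_DMSO 1 to 4. The pool carried a miR-31 signal above the highest Hy5 negative control on 12 of 12 arrays. RR_Rap 2 was the lowest of its group in both channels, with local backgrounds of 44.5 in Hy3 and 77.5 in Hy5, against group means of 48.6 and 88.2.

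**Figure D1:**
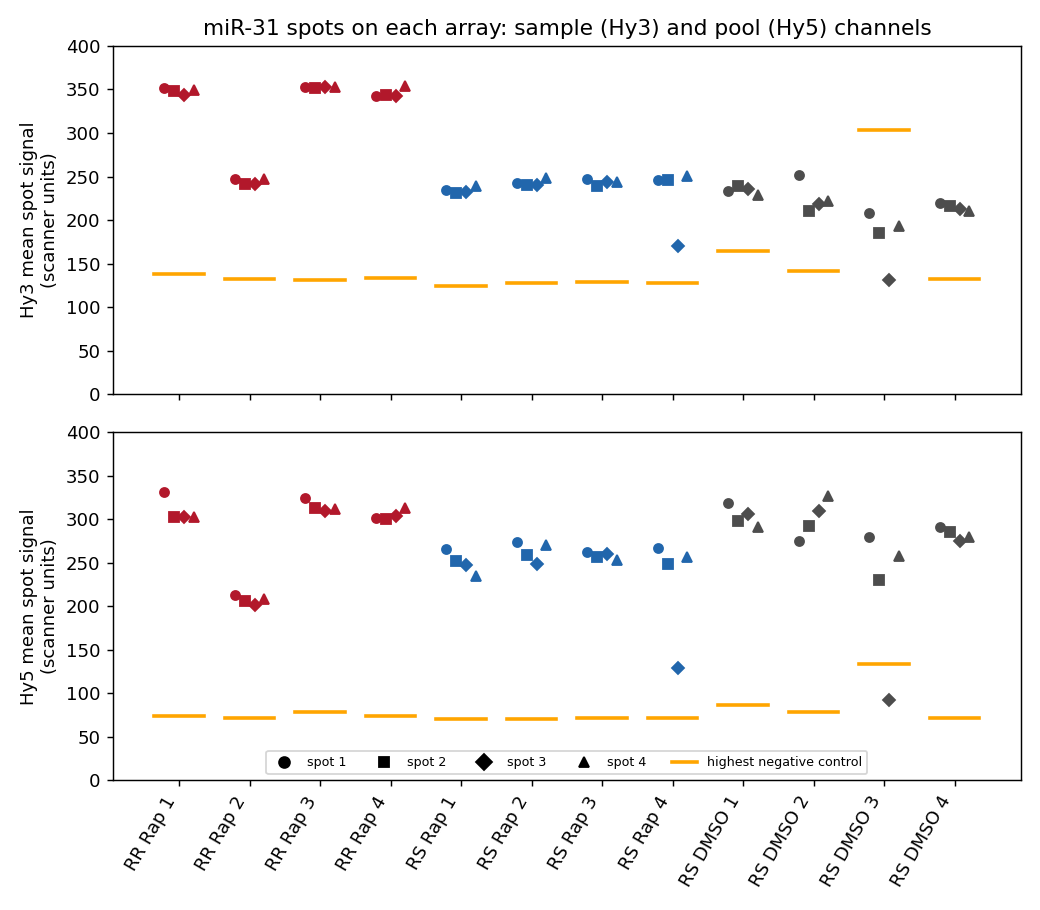
Mean signal of each miR-31 spot in scanner units (vertical axis) on each array (horizontal axis), in the sample channel Hy3 above and the pool channel Hy5 below, with 1 symbol per spot and an orange bar at the highest negative control of that array. RR_Rap 1, 3 and 4 read 346 to 352 on average in Hy3, and the third spot is dim in both channels on RS_Rap 4 and RS_DMSO 3.

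The spots of an array mostly lay close together. Their coefficient of variation in Hy3 was 0.0446 to 1.69% in RR_Rap, 1.37 to 17.0% in RS_Rap and 1.74 to 18.7% in RS_DMSO. The upper ends came from RS_Rap 4 and RS_DMSO 3, where the third spot was dim in both dyes, at 170 in Hy3 and 129 in Hy5 on RS_Rap 4 and at 131 in Hy3 and 92.0 in Hy5 on RS_DMSO 3. None of the 48 spots was flagged or saturated. In the normalized ratio the third spot of RS_DMSO 3 read 0.082 on the log2 scale, against -1.19, -1.31 and -1.28 for its other spots.

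The normalized log2 ratio of miR-31, the mean of its spots after loess, separated the resistant arrays from all sensitive ones. It was 0.36, 0.32, 0.36 and 0.32 on RR_Rap 1 to 4. It was -0.50, -0.52, -0.37 and -0.38 on RS_Rap 1 to 4, and -0.54, -0.32, -0.92 and -0.33 on RS_DMSO 1 to 4. The resistant arrays were the highest and overlapped neither sensitive group, while both sensitive groups overlapped each other. Such separation was not particular to miR-31. The resistant arrays of miR-214, miR-221 and miR-222, for example, overlapped neither sensitive group and were the lowest. The share of all probes that separated was not counted. The group means were 0.34 ± 0.023 in RR_Rap, -0.44 ± 0.077 in RS_Rap and -0.53 ± 0.28 in RS_DMSO (SD, n = 4 each).

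The level in RR_Rap was 1.83-fold that in RS_DMSO, a log2 difference of 0.87 ± 0.11 (standard error of the limma fit). It was 1.72-fold that in RS_Rap, a log2 difference of 0.78 ± 0.11. Since these arrays chose the miRNA, no test is attached. For background, limma called 12.9% of the 417 probes higher and 10.3% lower in RR_Rap than in RS_DMSO at an adjusted p under 0.05, and 15.1% higher and 13.7% lower in RR_Rap than in RS_Rap. These are bulk RNA samples, in which fewer cells with a miRNA and less of it per cell cannot be told apart.

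RS_DMSO 3 stood apart from its group over all probes, with correlations of 0.574 to 0.709 to the other DMSO arrays and an array weight of 0.15. Without it, miR-31 in RR_Rap exceeded RS_DMSO by 0.74 on the log2 scale.

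**Figure D2:**
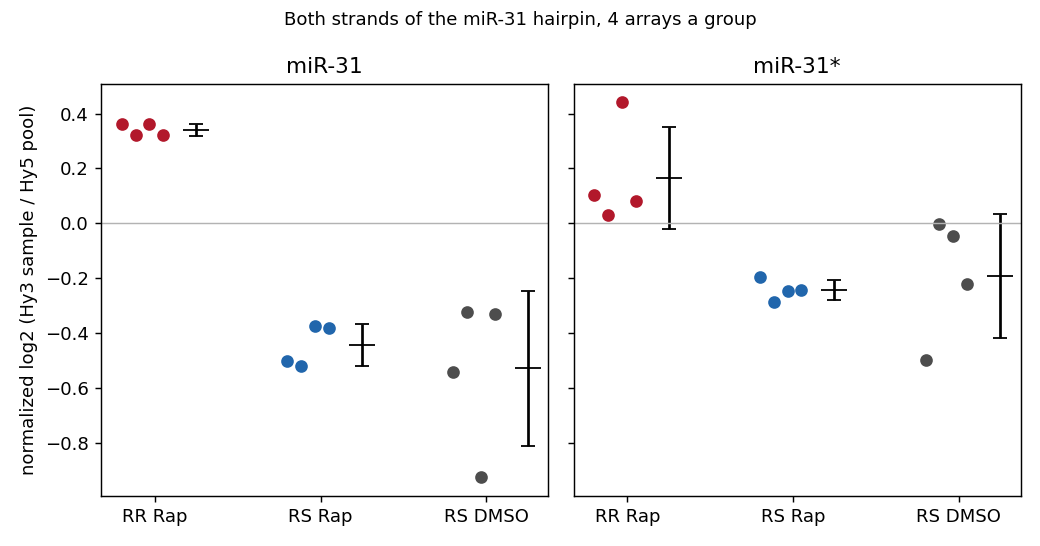
Normalized log2 ratio of sample over pool (vertical axis) for miR-31 (left) and miR-31* (right) in RR_Rap, RS_Rap and RS_DMSO, with 1 point per array and bars at the mean ± SD of 4 arrays. For miR-31 the resistant arrays sit at 0.32 to 0.36, above all sensitive arrays, and for miR-31* RR_Rap 3 sits at 0.44, above the other 3 of its group.

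The comparison of RS_Rap with RS_DMSO asks what a day of rapamycin does in sensitive cells, and it did not choose the miRNA, although it shares its DMSO arrays with a comparison that did. miR-31 had a log2 difference of 0.085 ± 0.11 between RS_Rap and RS_DMSO, with a 95% interval from -0.15 to 0.32 and a limma adjusted p of 0.638. Over all probes, 1.68% were called higher and 1.68% lower in this comparison. The difference was within the spread of the DMSO arrays, and without RS_DMSO 3 its sign turned, to -0.047 (adjusted p = 0.641).

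The call varied with the scaling. Without loess the log2 difference between RS_Rap and RS_DMSO was 0.29 (adjusted p = 0.0163), and it was 0.16 with each array centred on its median ratio (adjusted p = 0.0377), 0.27 with centring on spike-in spots (adjusted p = 0.00995) and 0.28 in the deposited value table (adjusted p = 0.0037), each a call. With Hy3 alone it was 0.41 (adjusted p = 0.229) and with the processed signals 0.35 (adjusted p = 0.203), neither a call. The median of all probes between RS_Rap and RS_DMSO moved from -0.016 with loess to 0.11 without it. Taken less that median, miR-31 differed by 0.10 with loess and by 0.18 without.

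The size of the resistant difference depended on the same step. Loess moved the miR-31 ratio by 0.14 ± 0.060 in RR_Rap, by -0.35 ± 0.057 in RS_Rap and by -0.15 ± 0.46 in RS_DMSO (mean ± SD, n = 4 each). The single largest move was -0.81, on RS_DMSO 3. Without loess the ratios were 0.19, 0.27, 0.17 and 0.18 on RR_Rap 1 to 4. They were -0.11, -0.16, -0.10 and 0.020 on RS_Rap 1 to 4, and -0.44, -0.46, -0.11 and -0.51 on RS_DMSO 1 to 4.

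On that scale the resistant arrays still lay above each sensitive array, but RS_Rap lay between RR_Rap and most of RS_DMSO. The log2 difference of RR_Rap from RS_DMSO was 0.58 without loess, and that of RR_Rap from RS_Rap was 0.29. With the signals as processed by the scanner software, the same differences were 1.37 and 1.02, and in the deposited value table they were 0.53 and 0.24. Less the median of all probes, which without loess moved to 0.11 between RR_Rap and RS_DMSO, miR-31 stood 0.47 higher in RR_Rap than in RS_DMSO without loess and 0.88 higher with it.

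**Figure D3:**
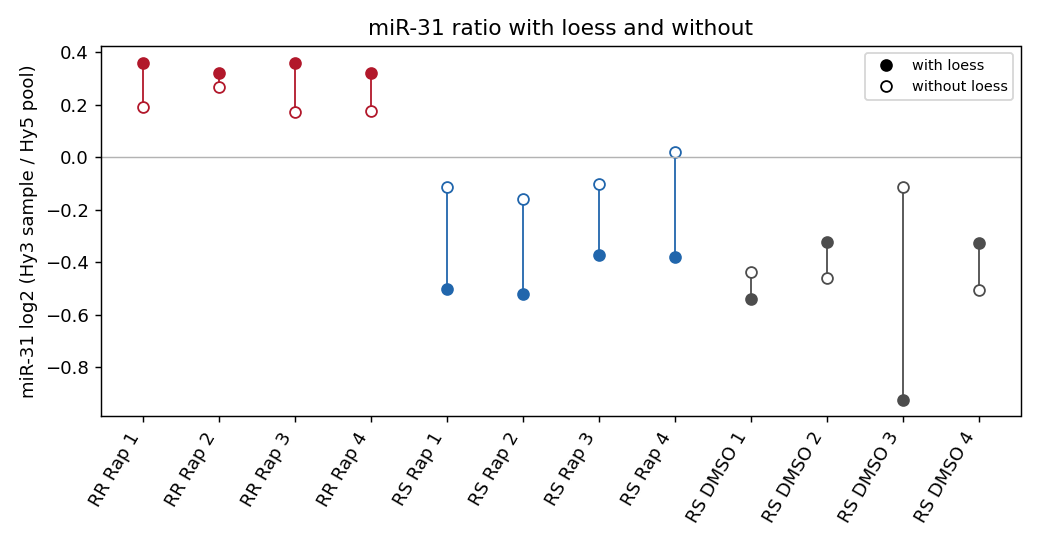
miR-31 log2 ratio of sample over pool (vertical axis) on each array (horizontal axis), with loess (filled) and without it (open), joined by a line per array. The mean shift made by loess was 0.14 in RR_Rap and -0.35 in RS_Rap, so the gap between these groups is wider with loess.

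The other strand, miR-31*, gave a Hy3 signal close to that of the negative controls in every group, so no fold is given for it. Of its 48 spots, 1 on RS_DMSO 3 was flagged and left out of the ratios. The mean Hy3 signal over all 4 spots was 133, 129, 167 and 134 on RR_Rap 1 to 4. It was 117, 118, 131 and 132 on RS_Rap 1 to 4, and 120, 139, 122 and 128 on RS_DMSO 1 to 4. Its median Hy3 signal passed the highest negative control on 4 of 12 arrays, too few in any group to count as above it. In Hy5 its median signal passed the highest negative control on 11 of 12 arrays. Local Hy5 background was exceeded by 22 of its 48 spots. That background was itself high, with a median of 92 over the arrays, against 75.4 for all spots. One strand of a hairpin is usually degraded, and a starred name marks the strand found less often when the name was given.

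The normalized log2 ratio of miR-31* was 0.10, 0.032, 0.44 and 0.083 on RR_Rap 1 to 4. It was -0.20, -0.29, -0.24 and -0.24 on RS_Rap 1 to 4, and -0.50, -0.0025, -0.045 and -0.22 on RS_DMSO 1 to 4. The resistant arrays overlapped neither sensitive group, and RR_Rap 3 stood well above the other resistant arrays. Without loess the ratios were 0.67, 0.73, 0.69 and 0.66 on RR_Rap 1 to 4, where RR_Rap 3 did not stand apart. Loess moved them by -0.57, -0.70, -0.25 and -0.58. Against RS_DMSO, other probes not above the negative controls, such as miR-137, miR-379 and miR-328, did not overlap either. The share of all probes without overlap was not counted. With loess the miR-31* means were 0.16 ± 0.19 in RR_Rap, -0.24 ± 0.037 in RS_Rap and -0.19 ± 0.23 in RS_DMSO (SD, n = 4 each).

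The log2 difference of the miR-31* probe was 0.36 ± 0.11 in RR_Rap against RS_DMSO (limma adjusted p = 0.0346). It was 0.41 ± 0.11 in RR_Rap against RS_Rap (adjusted p = 0.0147). Both passed the threshold, for a probe that was not above the negative controls in any group. Between RS_Rap and RS_DMSO the log2 difference was -0.051 ± 0.11, with a 95% interval from -0.29 to 0.19 (adjusted p = 0.773). These calls stand beside the 12.9% and 15.1% of all probes called higher in the same comparisons.

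The call against RS_DMSO was lost without background subtraction (log2 difference 0.21, adjusted p = 0.119), with only the arrays of both groups in the fit (adjusted p = 0.0984), and when RR_Rap 1, 3 or 4 or RS_DMSO 1 or 4 was left out (adjusted p = 0.0557, 0.0975, 0.0518, 0.0785 and 0.0621). The call against RS_Rap held with each array left out and was lost without background subtraction (adjusted p = 0.0693), without loess (0.0702), with Hy3 alone (0.523) and in the value table (0.156).

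Both strands were also set beside the nearest measured miRNA gene. miR-491, from Mir491 inside the gene Focad (chr4:88122040-88122125), lay below the negative controls. Its log2 differences were -0.090 ± 0.13 between RR_Rap and RS_DMSO, 0.10 ± 0.13 between RR_Rap and RS_Rap and -0.19 ± 0.13 between RS_Rap and RS_DMSO (adjusted p = 0.696, 0.623 and 0.352). Over the 12 arrays the Pearson r to miR-31 was 0.70 for miR-31* and -0.18 for miR-491.

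Among the 217 other mouse probes above the negative controls, those whose profile over the 12 arrays was most like that of miR-31 were sought by Pearson r of the normalized ratio. The arrays share the 3 groups and RS_DMSO 3, so r mostly restates the group means, and no test is given. The highest r were 0.99 for miR-340-5p, 0.99 for miR-93, 0.98 for miR-106a, 0.98 for miR-17* and 0.97 for miR-96. miR-93, miR-106a and miR-17* come from the paralogous miR-106b, miR-106a and miR-17 clusters, which are known to promote cell proliferation, and miR-96 belongs to a cluster known for its role in sensory hair cells.

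Their mature strands (RefSeq, GRCm38.p6) are printed with the seed in capitals to show how their seeds compare. None has the miR-31 seed, while miR-93 and miR-106a share 1 seed.
miR-340-5p: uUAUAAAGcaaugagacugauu
miR-93: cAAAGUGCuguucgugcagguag
miR-106a: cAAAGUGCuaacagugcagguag
miR-17*: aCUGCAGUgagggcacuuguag
miR-96: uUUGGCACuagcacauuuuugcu

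In RR_Rap against RS_DMSO, the folds were 1.76 for miR-340-5p, 2.71 for miR-93, 2.87 for miR-106a, 1.45 for miR-17* and 1.89 for miR-96, with miR-31 at 1.83 in the midst of them. The log2 difference of miR-340-5p was 0.82 with loess, 0.46 without, 0.36 in the value table and 1.40 with the processed signals, and that of miR-17* was 0.53, 0.29, 0.19 and 0.94 in the same order. Group means of these 5 probes ran from 0.28 to 0.68 on the log2 scale in RR_Rap, from -0.75 to -0.031 in RS_Rap and from -1.03 to -0.10 in RS_DMSO. Their r was 0.97 to 0.99 without RS_DMSO 3 and 0.89 to 0.94 without loess.

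The lowest r were -0.95 for miR-29a, -0.94 for let-7i, -0.93 for miR-21, -0.92 for miR-125a-5p and -0.90 for miR-22. miR-29a is known to repress collagen genes, miR-21 to repress Pdcd4, and let-7 miRNAs to restrain growth and keep cells differentiated. Group means of these 5 probes ran from -1.25 to -0.26 in RR_Rap, from 0.094 to 0.61 in RS_Rap and from 0.11 to 0.61 in RS_DMSO. Against RS_DMSO, miR-21 was 3.52-fold, miR-22 2.82-fold, miR-29a 2.81-fold, let-7i 1.36-fold and miR-125a-5p 1.33-fold lower in RR_Rap. Their r was -0.98 to -0.93 without RS_DMSO 3. It weakened to between -0.61 and -0.23 without loess, with the differences of RR_Rap from both sensitive groups keeping their sign.

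**Figure D4:**
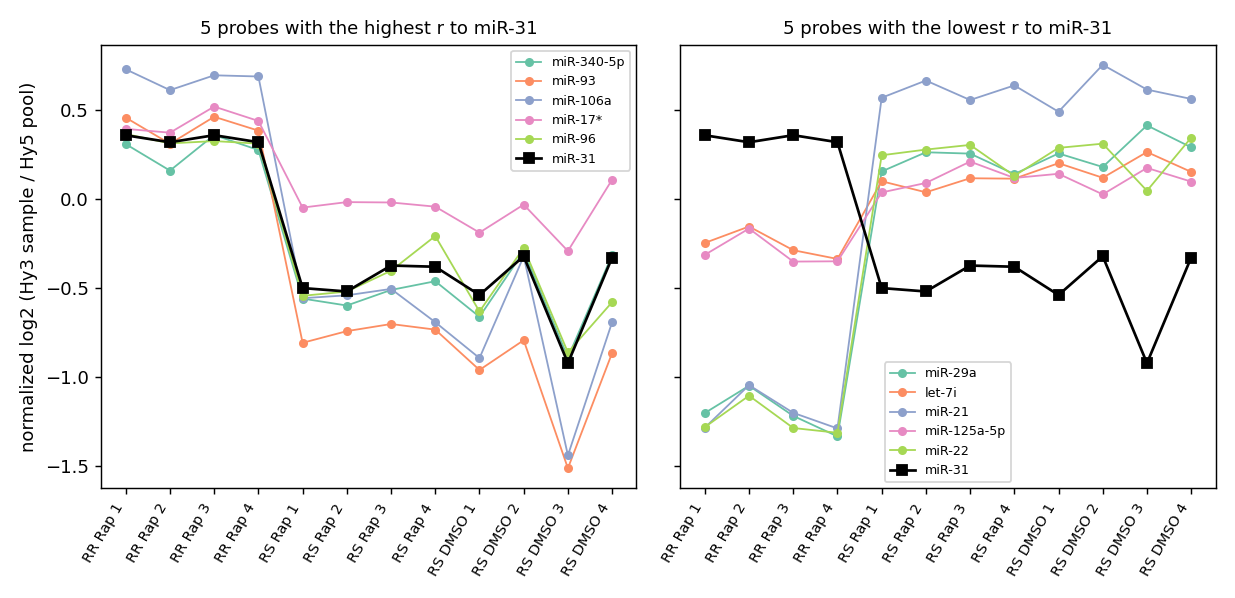
Normalized log2 ratio of sample over pool (vertical axis) on each array (horizontal axis) for miR-31 (black) with the 5 probes of highest r (left) and lowest r (right), lines joining the arrays for reading only. The left probes are high on all 4 resistant arrays and the right ones low, and RS_DMSO 3 is the lowest array of the DMSO group for miR-31 and the left probes.

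Since miR-31 is known from muscle stem cells, a list of 33 miRNA names linked to muscle fate or growth was read beside it. Of these names 30 had a probe, and 22 of the 30 lay above the negative controls, beside 218 of all 417 probes. The shares over all probes given below are therefore not matched to the list for detection. In RR_Rap against RS_DMSO, 1 member was called higher and 8 lower, 21 were not called, and the median log2 difference was -0.056 against -0.0070 over all probes. The shares called, 3.33% higher and 26.7% lower, stand beside 12.9% and 10.3% of all probes. Fitted alone, the 218 probes above the controls gave 49 higher and 32 lower calls against RS_DMSO, and 55 and 41 against RS_Rap. The calls of list members in that fit were not counted. In the main fit every member called in RR_Rap against RS_DMSO lay above the controls. The same held against RS_Rap for all called members but miR-208. In RR_Rap against RS_Rap, 3 were called higher and 12 lower (10% and 40% of members, against 15.1% and 13.7% of all probes), with a median of -0.16 against 0.026 over all probes. Between RS_Rap and RS_DMSO 2 were called higher and 1 lower (6.67% and 3.33%, against 1.68% each way over all probes), with a median of 0.10 against -0.016 over all probes.

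Without RS_DMSO 3 the counts against RS_DMSO were 1 higher and 11 lower for RR_Rap and 2 higher and 1 lower for RS_Rap, beside 12.9% higher and 11.5% lower, and 2.88% and 3.36%, of all probes. With the Hy3 channel alone they were 1 higher and 4 lower for RR_Rap against RS_DMSO and 0 higher and 6 lower against RS_Rap, beside 9.11% higher and 3.84% lower, and 6.95% and 6.47%, of all probes. Without loess 1 member was called higher and 18 lower in RR_Rap against RS_Rap, and 16 higher and 0 lower between RS_Rap and RS_DMSO. Of all probes, 5.04% were then called higher and 24% lower in RR_Rap against RS_Rap, and 28.1% higher and 0.24% lower between RS_Rap and RS_DMSO.

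Of the miRNAs that mark differentiated muscle, miR-206 and miR-1 were detected above the negative controls, while miR-133a, miR-133b, miR-208, miR-486 and miR-499 were not. miR-206 fell 1.53-fold in RR_Rap against RS_Rap, with mean log2 ratios of 0.0045 ± 0.14 in RR_Rap and 0.62 ± 0.027 in RS_Rap (SD, n = 4 each; limma adjusted p = 0.0339). miR-1 fell 1.60-fold in RR_Rap against RS_Rap, with means of -0.30 ± 0.022 in RR_Rap and 0.38 ± 0.039 in RS_Rap (adjusted p = 0.023). Against RS_DMSO the log2 differences of RR_Rap were -0.28 ± 0.19 for miR-206 and -0.30 ± 0.20 for miR-1 (adjusted p = 0.388 and 0.335). The DMSO arrays were widely spread, with means of 0.28 ± 0.52 for miR-206 and 0.0073 ± 0.55 for miR-1 (SD, n = 4 each). With Hy3 alone neither was called in RR_Rap against RS_Rap (adjusted p = 0.152 for miR-206 and 0.123 for miR-1).

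miR-222 and miR-221, which repress the cell cycle inhibitor p27 and are known to fall as muscle cells differentiate, were lower in resistant cells than in both sensitive groups. miR-222 fell 3.40-fold against RS_DMSO, with mean log2 ratios of -1.40 ± 0.27 in RR_Rap and 0.36 ± 0.22 in RS_DMSO (adjusted p = 9.62e-07), and miR-221 fell 1.51-fold (adjusted p = 0.000532). miR-29a, which promotes muscle differentiation in mouse myoblasts and was named above for its low r, fell 2.81-fold (adjusted p = 5.39e-09). Its low r to miR-31 and this fall come from the same arrays and are not separate results. The list was chosen with earlier results of these data known, which limits what the adjusted p of its members can show. miR-125b-5p, known to restrain muscle regeneration in mice, fell 1.80-fold (adjusted p = 6.76e-07), a call lost with Hy3 alone (adjusted p = 0.389), and miR-214 fell 1.63-fold (adjusted p = 2.76e-06). The other 3 called lower against RS_DMSO were miR-29b by 1.48-fold, miR-199a-3p/199b by 1.40-fold and miR-199a-5p by 1.24-fold, each also lost with Hy3 alone. With the processed signals the calls of miR-29b and miR-199a-5p were lost as well (adjusted p = 0.185 and 0.363).

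The member called higher in both resistant comparisons was miR-378, which is induced during muscle differentiation. It rose 1.71-fold in RR_Rap against RS_DMSO, with means of 0.17 ± 0.081 in RR_Rap and -0.60 ± 0.38 in RS_DMSO (adjusted p = 0.00157), and 1.45-fold against RS_Rap (adjusted p = 0.0155). With Hy3 alone the first of these calls was lost (log2 difference 0.75, adjusted p = 0.093), and the 1 member called higher there was another one. The second was lost without loess, with either centring, with Hy3 alone, in the value table and with the processed signals, where the log2 difference ran from 0.041 to 0.58. Against RS_Rap, miR-128a/128b and miR-208 were also called higher, miR-208 from below the negative controls. The call of miR-208 was lost at log2 differences of 0.096 without loess, 0.11 with spike-in centring, 0.12 with Hy3 alone and 0.011 in the value table (adjusted p = 0.368, 0.252, 0.625 and 0.902). That of miR-128a/128b was lost without loess (adjusted p = 0.0779) and with Hy3 alone (adjusted p = 0.594).

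After 24 h of rapamycin, miR-26a and miR-125b-5p rose 1.18-fold and 1.21-fold against RS_DMSO (adjusted p = 0.031 and 0.0321). Their log2 differences of 0.24 and 0.28 became 0.90 and 0.94 without loess, 0.76 and 0.81 with median centring and 0.85 and 0.94 in the value table. miR-214 fell by 0.29 on the log2 scale (adjusted p = 0.0217) but stood at 0.36 without loess, 0.23 with median centring, 0.34 with spike-in centring and 0.32 in the value table. The calls of miR-26a, miR-125b-5p and miR-214 were lost with Hy3 alone and with the processed signals. There miR-214 stood at -0.23 and -0.28 (limma adjusted p = 0.513 and 0.0977).

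**Figure D5:**
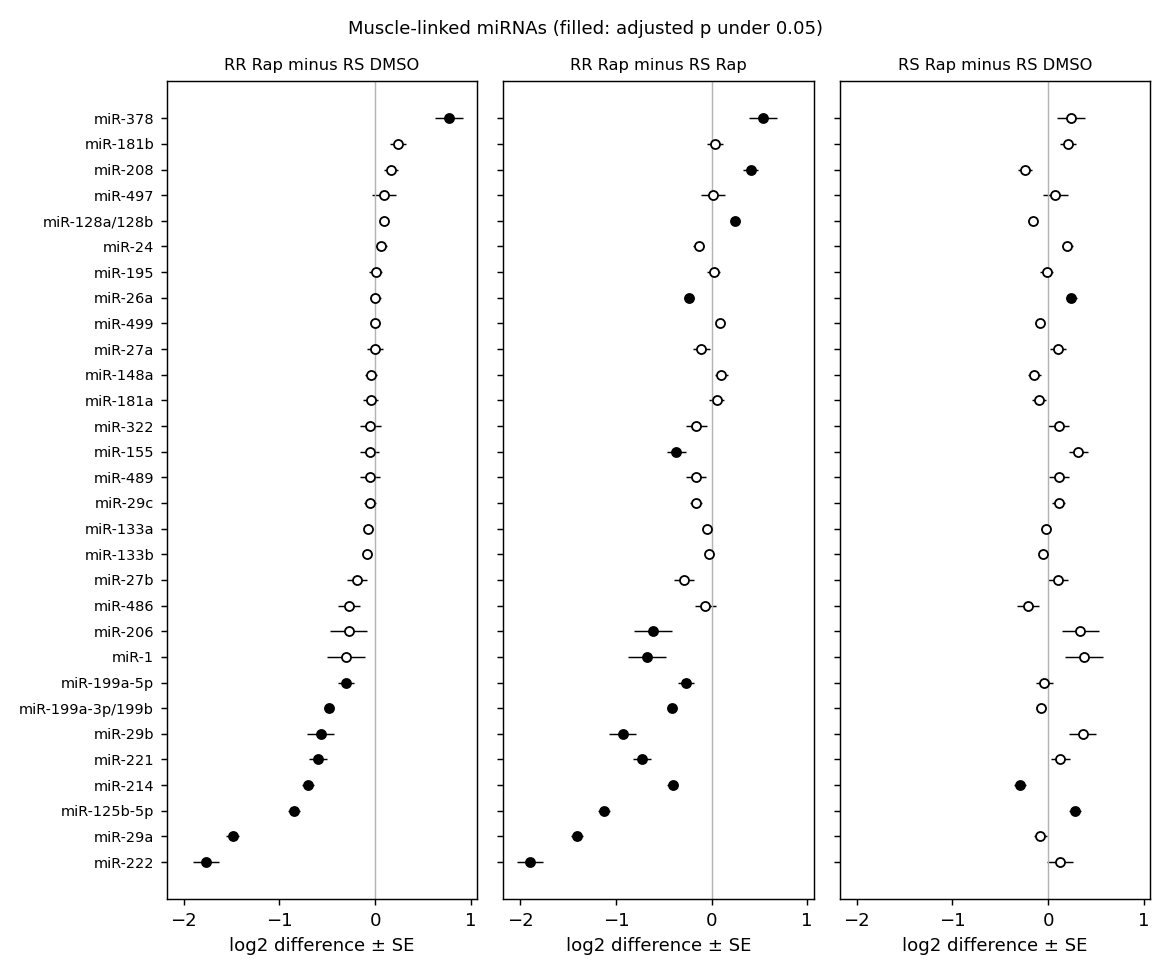
Log2 difference with its standard error (horizontal axis) of the 30 measured miRNAs linked to muscle (vertical axis) in RR_Rap against RS_DMSO, RR_Rap against RS_Rap and RS_Rap against RS_DMSO, filled where the limma adjusted p was under 0.05. In the left panel 8 members are called lower and 1 higher, and in the right panel 1 lower and 2 higher.

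Markers of other cell types were read on the same arrays. Above the negative controls were 3 of 8 neuron and brain markers (miR-9, miR-128a/128b and miR-129-5p), 2 of 6 blood markers (miR-142-3p and miR-150), 0 of 7 epithelial, 0 of 2 endothelial and 0 of 1 liver markers. These counts stand beside 218 of all 417 probes. Among muscle markers 2 of 7 were above (miR-206 and miR-1), while miR-133a was below, as was the neuronal marker miR-124.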

How the data were processed

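Per the file headers, the deposited spot intensity values of both dyes come from the scanner and are not normalized. They were extracted with Agilent Feature Extraction 9.5.3.1, per the submitters' processing notes. The deposited value table holds log2 values of unstated centring. Against the raw log2 of Hy3 over Hy5 of the same array it had r of 0.99 to 1.00, which gives it the direction of sample over pool, and its array medians ran from 0.393 to 0.604. The labels give 2 accounts of the pool, equal amounts of each condition or RNA of 9 samples, while there are 12 arrays, so its makeup is unsettled.

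Mean signals were corrected with normexp (offset 50, which shrinks the differences of dim probes), normalized by loess within each array with control spots at weight 0, and averaged over unflagged spots in limma 3.58.1 (R 4.3.3). 1 lmFit and eBayes fit to all 12 arrays gave every comparison, with Benjamini-Hochberg adjustment over 417 mouse probes and a threshold of 0.05. To count as above the negative controls, a probe needed a median Hy3 signal past the highest of 7 such probes on at least 3 arrays of a group, as 218 did. The software's own background flag was set for nearly all spots and was not used. The limma fit alone was tested on simulated ratios with known changes, which did not cover background correction, loess or the averaging of spots.

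Named miRNAs were miR-31, miR-31*, measured miRNAs within 1 Mb, the muscle list, the cell type markers, and the 5 highest and 5 lowest r. The miRNA and the lists were chosen with earlier results of these data known. Nothing says that replicates came from separate cultures, so p-values reflect the spread of these samples alone, which may be technical. Precision is limited by the number of arrays. Same-numbered arrays did not deviate together (r from -0.11 to 0.15, over 0.1 in 2 of 12 pairs), so the numbers were not taken as pairs. Alternatives covered background, offset, pixel and spot summary, normalization, channel, source, filter, weights, block and each array left out.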

Additional observations from a re-analysis of the deposited data

Results flagged for a closer look

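Among 18 groups of 4 arrays (3 groups, both strands, and the normalized ratio, Hy3 and Hy5 signals), 5 held an array far from the others, its gap to the nearest array, as a share of the range, passing Dixon's critical value, where chance alone marks about 1 group in 20. They come from 2 arrays. On RR_Rap 2 the miR-31 signal was low, at 244 in Hy3 and 207 in Hy5, while its normalized ratio was 0.32, as on RR_Rap 4. On RR_Rap 3 miR-31* was high, with a Hy3 signal of 167, a Hy5 signal of 111 and a normalized ratio of 0.44, its gap taking 0.83 of the range. Without loess the miR-31* ratio on RR_Rap 3 was 0.69, within the 0.66 to 0.73 of the other resistant arrays.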

How the results depend on the processing

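Of the alternatives planned, slide or scan date as a block could not be run, since each array lay on a slide of its own and all were scanned on 1 day. The filter on negative controls gave no value for miR-31*, which it removes. For miR-31 in RR_Rap against RS_DMSO (0.87 on the log2 scale), the difference was 0.58 without loess, 0.49 with median centring, 0.57 with spike-in centring, 0.53 in the value table and 1.37 with processed signals, and 0.74 to 0.94 with 1 array left out. Against RS_Rap (0.78) it was 0.64 without background subtraction, 0.97 with an offset of 10, 0.29 without loess, 0.34 and 0.30 with the centrings, 0.61 with Hy3 alone, 0.24 in the value table and 1.02 with processed signals, and 0.76 to 0.81 with 1 array left out. For RS_Rap against RS_DMSO (0.085) the call was made at 0.29 without loess, 0.16 and 0.27 with the centrings and 0.28 in the value table, the value was 0.41 with Hy3 alone and 0.35 with processed signals with no call (adjusted p = 0.229 and 0.203), the sign turned to -0.049 with array weights, and leaving out 1 array gave -0.047 to 0.15. miR-31* in RR_Rap against RS_DMSO lost its call at 0.21 without background subtraction and at 0.36 with 2 groups in the fit, was 0.63 with an offset of 10 and 0.85 with processed signals, and leaving out 1 array gave 0.25 to 0.42. Against RS_Rap it lost its call at 0.23 without background subtraction, 0.27 without loess, 0.16 with Hy3 alone and 0.17 in the value table, was 0.68 with an offset of 10 and 0.82 with processed signals, and leaving out 1 array gave 0.31 to 0.45. For RS_Rap against RS_DMSO (-0.051) its sign turned to 0.12 without loess, 0.099 with spike-in centring, 0.12 in the value table, 0.21 with Hy3 alone and 0.036 with processed signals, and leaving out 1 array gave -0.15 to 0.012. Of all probes, 97 were called in RR_Rap against RS_DMSO, 54 higher and 43 lower. This became 54 with Hy3 alone (38 higher, 16 lower), 74 higher and 28 lower without loess, 32 higher and 44 lower in the value table, and 77 to 107 with 1 array left out. Against RS_Rap 120 were called, 63 higher and 57 lower, against 246 with median centring, 56 with Hy3 alone and 183 with array weights, 21 higher and 100 lower without loess, 26 and 107 with spike-in centring, 15 and 121 in the value table, and 97 to 145 with 1 array left out. Between RS_Rap and RS_DMSO 14 were called, 7 each way, against 52 without background subtraction, 33 with the median of the spots, 118 without loess (117 higher, 1 lower), 123 with median centring (92 and 31), 128 with spike-in centring (123 and 5), 111 in the value table (105 and 6), 35 with processed signals (14 and 21), 2 with Hy3 alone, 5 with 2 groups in the fit, and 4 to 34 with 1 array left out, RS_DMSO 2 giving the lowest and RS_DMSO 4 the highest. The cause of these shifts was not tested. With the replicate block the differences of miR-31 were 0.87, 0.78 and 0.085, no call of either strand changed, and the counts were 89, 113 and 20. Leaving out the third spot of miR-31 on all arrays, an alternative chosen after seeing the data, gave 0.95, 0.80 and 0.15. The reading of the muscle list and of the like-patterned probes under other scalings and without RS_DMSO 3 was also chosen after seeing the data.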
